A study of Mus musculus with 9 samples.

Results

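The Mir532 locus is a group of microRNA (miRNA) hairpins in an intron of Clcn5, the gene of a chloride and proton exchanger, on the mouse X chromosome. A total of 8 mature miRNAs from it were followed, namely mmu-miR-188-5p, mmu-miR-188-3p, mmu-miR-362-5p, mmu-miR-362-3p, mmu-miR-500-3p, mmu-miR-501-3p, and both arms of Mir532, mmu-miR-532-5p and mmu-miR-532-3p. They were picked by name from the 1448 miRNAs listed, and all 8 were among the 628 that passed the filter of at least 10 reads in at least 3 libraries. The locus was selected on the read counts of the miR-532 arms in these libraries, so their values are given as a description with no test, and tests were confined to the 6 other members. The libraries were made from hippocampal small RNA of adult male C57BL/6J mice, 3 libraries in each of 3 groups. The saline group received 0.9% saline. The LPS group received a single intraperitoneal dose of 1 mg/kg LPS, a bacterial endotoxin used to induce neuroinflammation, and, per the labels, 0.12% saline. The LPS + GAS group received the same LPS and 100 mg/kg GAS (gastrodin, a phenolic glucoside), which the labels place 1 h after LPS, while the methods also describe it as given together with LPS. The comparisons asked how the hippocampal miRNAs differed after LPS and after GAS. In bulk tissue, fewer cells of a type and less miRNA per cell cannot be told apart.

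A miRNA is cut from a hairpin in a longer transcript. Either arm of the hairpin, the 5p or the 3p, can be loaded into an Argonaute protein, and the arm that is not loaded is mostly degraded. The loaded miRNA then finds its target mRNAs mainly by its seed, bases 2 to 8, so miRNAs with the same seed are expected to share many targets. Hairpins that lie close together on the same strand are often cut from a common transcript, yet their mature miRNAs can differ widely in level because each is processed and kept stable on its own.

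All 5 hairpins lie on the minus strand of chromosome X (GRCm38), and their coordinates were the same in RefSeq (GRCm38.p6) and GENCODE M21. In the direction of transcription, Mir532 (7248402 to 7248497) comes first, followed after 345 bp by Mir188 (7247989 to 7248056). Mir362 (7241982 to 7242046) follows after 5942 bp, Mir501 (7241243 to 7241351) after a further 630 bp and Mir500 (7237683 to 7237774) after a further 3468 bp. The 5 hairpins span 10815 bp, and all of them sit within a single intron of 103648 bp (7213011 to 7316658), which is intron 3 of the transcript Clcn5-202. The hairpin sequences in the deposited table were the same as those of RefSeq for 5 of 5 hairpins. Of the 10 mature miRNAs of these hairpins, 9 were matched in RefSeq with the same sequence, mmu-miR-532-5p being the other.

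The sequence of the Mir532 hairpin is shown first because its arms carry the largest differences between libraries. The arms are in capitals, the 5p arm at bases 21 to 42 and the 3p arm at bases 58 to 79 of 96.
Mir532 hairpin: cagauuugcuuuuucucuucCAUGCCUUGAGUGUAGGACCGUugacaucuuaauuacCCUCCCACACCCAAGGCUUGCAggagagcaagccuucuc

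The mature sequences of the members follow, 5′ to 3′ as listed in the deposited table, with the seed in capitals, because the seeds show which members could share targets.
mmu-miR-532-5p: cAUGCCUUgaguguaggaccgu
mmu-miR-188-5p: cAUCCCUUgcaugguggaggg
mmu-miR-362-5p: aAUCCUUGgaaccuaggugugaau
mmu-miR-532-3p: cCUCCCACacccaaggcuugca
mmu-miR-188-3p: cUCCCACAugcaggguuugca
mmu-miR-362-3p: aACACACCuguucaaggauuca
mmu-miR-501-3p: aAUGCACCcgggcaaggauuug
mmu-miR-500-3p: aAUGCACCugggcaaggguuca

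MiR-501-3p and miR-500-3p had the same seed, AUGCACC. Counted from the 5′ end, with the base of miR-501-3p first, they differed at C9U, A18G, U21C and G22A, and the counting of reads that do not span these bases could not be checked from the table. No other listed miRNA had the seed of miR-532-5p, miR-532-3p or miR-188-3p. The seed of miR-188-3p, UCCCACA, stood at bases 3 to 9 of miR-532-3p, a shift of a single base. The mature sequence closest to miR-532-5p among all those listed was that of miR-188-5p, with 14 matching bases of 21 aligned without gaps. MiR-362-5p had its seed in common with miR-500-5p, the minor arm of Mir500, which had 2 to 9 reads per library. MiR-188-5p had its seed in common with miR-7061-3p, which had at most 1 read per library. MiR-362-3p had its seed in common with miR-329-3p, a miRNA from another locus with 1244 to 2581 reads per library.

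The libraries held 10119758 to 11457656 reads on miRNAs and 1008 to 1046 miRNAs with at least 1 read. Levels are given as reads or as CPM, edgeR's counts scaled by the library total and a TMM factor (0.914 to 1.19). Neuronal marker miRNAs (9 of 9 listed, none at 0) summed to 127590 to 166258 CPM over the 9 libraries. Markers of choroid plexus and ependyma (10 of 10 listed, none at 0) summed to 9800 to 29607 CPM in saline, 9600 to 22333 in LPS and 12601 to 56632 in LPS + GAS. Red blood cell markers (4 of 4 listed, none at 0) summed to 2025 to 4267, 2150 to 3241 and 4541 to 6175 CPM in the same order, so they did not overlap between LPS + GAS and the other groups. That sum was mostly miR-451a, with a median of 40522 reads against 453 for miR-486a-5p and 317 for miR-144-3p. The part of these markers in the results that follow was not tested.

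MiR-532-5p was the most abundant member in 7 of the 9 libraries and close to absent from the other 2, both of them LPS libraries. It had 11440, 13444 and 14360 reads in saline replicates 1, 2 and 3. The LPS libraries, in the same order, had 29, 12498 and 8 reads. In LPS + GAS it had 13660, 11361 and 12848 reads. The LPS group was therefore split, with replicate 2 within the read counts of the saline libraries and replicates 1 and 3 far under every other library.

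The 95% exact Poisson interval, which covers counting error only, was 19.4 to 41.6 reads for LPS replicate 1 and 3.45 to 15.8 for LPS replicate 3. On the CPM scale, the level of miR-532-5p was 2.89 CPM in LPS replicate 1, which is 412-fold under the median of the 7 other libraries, and 0.805 CPM in LPS replicate 3, which is 1478-fold under it. The 7 other libraries spanned 1038 to 1447 CPM, a 1.39-fold range. Ranked by reads within a library, miR-532-5p stood at place 65 to 81 in those 7 libraries, at place 473 in LPS replicate 1 and at place 606 in LPS replicate 3. The group levels were 1243 ± 183 CPM in saline, 347 ± 598 CPM in LPS and 1221 ± 64.6 CPM in LPS + GAS (SD, n = 3), and the SD of the LPS group exceeded its mean.

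A mean over the LPS group describes none of its 3 libraries. The fit over all libraries put miR-532-5p at a log2 fold change of −1.84 for LPS vs saline, and at 1.81 for LPS + GAS vs LPS. Without LPS replicate 2 these values were −9.36 and 9.38. Without LPS replicates 1 and 3 they were −0.26 and 0.24, so the size of the fold change moved with the LPS libraries that entered the fit. It also moved with the model, since with the same 9 libraries the replicate block gave −4.97 and 4.96, and voom −6.36 and 6.34. In LPS + GAS vs saline, a comparison in which no library was near 0, it was −0.03, and 0.03 with the size factors of DESeq2. Whether LPS replicate 2 lay inside the saline range depended on the scaling. It had 1038 CPM after TMM scaling, under the lowest saline library (1093 CPM), but 1235 CPM without TMM factors, within the 998 to 1360 of the saline libraries.

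**Figure D1:**
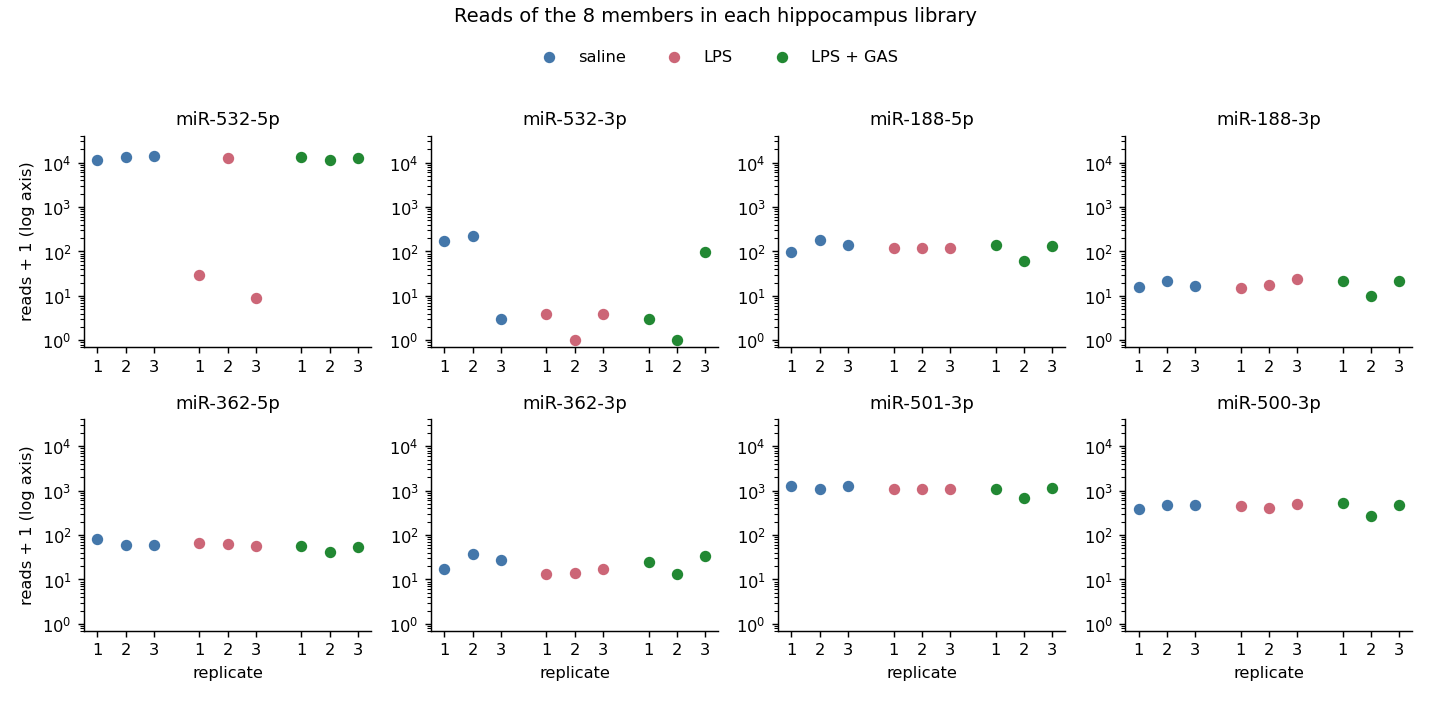
Reads plus 1 on a log axis for each of the 8 members, with a point for each of the 9 libraries in order of group and replicate number. MiR-532-5p sits at 11361 to 14360 reads in 7 libraries and at 29 and 8 reads in LPS replicates 1 and 3, miR-532-3p is at 0 to 3 reads in 6 libraries, and none of the 6 other members varies by more than 3.03-fold in CPM.

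MiR-532-3p, the other arm of the same hairpin, had a pattern of its own. It had 170, 225 and 2 reads in saline, 3, 0 and 3 in LPS, and 2, 0 and 98 in LPS + GAS. Thus it passed 10 reads in 3 of 9 libraries, which were saline replicates 1 and 2 and LPS + GAS replicate 3. In the other 6 it had at most 3 reads, and the exact Poisson interval of a count of 0 reaches 3.69 reads. Summed over a group, it had 397 reads in saline, 6 in LPS and 100 in LPS + GAS. The groups overlapped in reads for each of the 3 comparisons, as every group had at least 1 library with 3 reads or fewer.

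The arms of Mir532 did not fall together. In saline replicate 3, LPS replicate 2 and LPS + GAS replicates 1 and 2, miR-532-5p had 11361 to 14360 reads while miR-532-3p had 0 to 2. Among the 7 libraries in which miR-532-5p was abundant, the 5p share of the hairpin's reads ran from 98.4% (saline replicate 2, exact binomial 95% interval 98.1% to 98.6%) to 100% (LPS replicate 2, 99.97% to 100%). In LPS replicates 1 and 3 the share was 90.6% (75.0% to 98.0%) and 72.7% (39.0% to 94.0%), from 32 and 11 reads of the whole hairpin. Over all 9 libraries, 99.4% of the reads of the hairpin were 5p. Across the 9 libraries the CV of miR-532-3p, 154%, was exceeded by none of the 628 tested miRNAs. That of miR-532-5p, 57.9%, was exceeded by 41, beside a median of 23.6%. As the locus was chosen on these read counts, the ranks are a description only. MiR-532-3p reached 10 reads in 3 libraries, the fewest that the filter allows, which favours a high CV.

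The 6 other members had reads in all 9 libraries, and their sum in LPS replicates 1 and 3 was within the range of the other libraries. Their reads summed to 1760 in LPS replicate 1 and 1808 in LPS replicate 3, against 1067 to 1978 in the 7 other libraries. The reads of miR-532-5p divided by this sum came to 6.25 to 10.6 in the 7 libraries (median 7.23), 0.0165 in LPS replicate 1 and 0.00442 in LPS replicate 3. This ratio is taken within a library and uses no scaling between libraries. It was 439-fold and 1635-fold under the median of the 7 libraries in LPS replicates 1 and 3.

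Taken alone, each of miR-188-5p, miR-362-5p and miR-501-3p gave a similar picture as the denominator, with 434-fold to 533-fold for LPS replicate 1 and 1537-fold to 1636-fold for LPS replicate 3. Of the 6 other members, miR-188-5p, miR-362-5p, miR-362-3p and miR-501-3p lay within the CPM range of the 7 other libraries in both LPS replicates 1 and 3. Of these, miR-362-3p was near the low end of that range, with 1.19 and 1.61 CPM against a median of 2.24 CPM. MiR-188-3p and miR-500-3p were highest of all in LPS replicate 3, at 2.31 and 51.3 CPM. MiR-188-5p, whose hairpin is the nearest to Mir532, had 122 and 119 reads in LPS replicates 1 and 3 and 119 in LPS replicate 2.

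**Figure D2:**
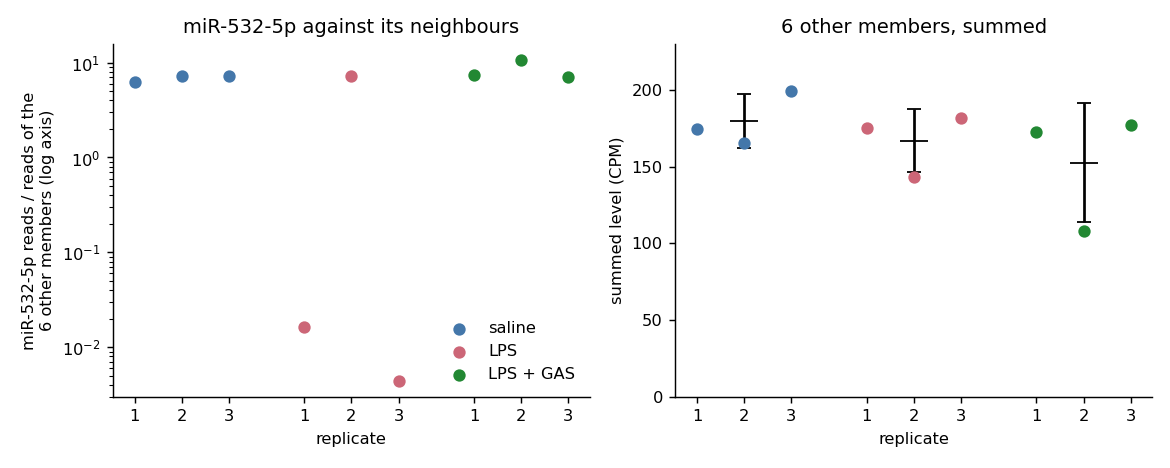
Left, reads of miR-532-5p over the summed reads of the 6 other members, on a log axis. Right, the summed level of these 6 members in CPM, with the mean and SD of each group as a black cross bar. The ratio is 6.25 to 10.6 in 7 libraries and under 0.02 in LPS replicates 1 and 3, whereas the sum of the 6 members in those libraries, 175 and 182 CPM, lies within the range of the others.

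Among the members other than miR-532-5p, miR-501-3p had the highest level. It is known in neurons for acting on Gria1, an AMPA receptor subunit, near synapses. It had 1246, 1110 and 1260 reads in saline, 1105, 1101 and 1085 in LPS, and 1096, 680 and 1135 in LPS + GAS. These are 115 ± 14.9, 104 ± 10.5 and 93.5 ± 21.7 CPM (SD, n = 3). The groups overlapped, and the lowest library was LPS + GAS replicate 2. For miR-501-3p the fit gave a log2 fold change of −0.15 (95% interval −0.63 to 0.33) for LPS vs saline, −0.15 (−0.63 to 0.33) for LPS + GAS vs LPS and −0.30 (−0.77 to 0.18) for LPS + GAS vs saline.

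MiR-500-3p, which has the seed of miR-501-3p, came next with 377, 469 and 478 reads in saline, 442, 415 and 510 in LPS, and 520, 266 and 463 in LPS + GAS. Its groups overlapped as well. For miR-500-3p the fit gave a log2 fold change of 0.05 (95% interval −0.54 to 0.63) for LPS vs saline, −0.11 (−0.69 to 0.47) for LPS + GAS vs LPS and −0.07 (−0.65 to 0.52) for LPS + GAS vs saline. MiR-501-3p had more reads than miR-500-3p in 9 of 9 libraries.

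MiR-188-5p has been studied in the hippocampus for its action on Nrp2, a semaphorin receptor. It had 94, 177 and 139 reads in saline, 122, 119 and 119 in LPS, and 136, 60 and 132 in LPS + GAS. The 3 LPS libraries stood inside the span of the saline libraries. For miR-188-5p the fit gave a log2 fold change of −0.19 (95% interval −0.90 to 0.53) for LPS vs saline, −0.11 (−0.83 to 0.61) for LPS + GAS vs LPS and −0.29 (−1.01 to 0.42) for LPS + GAS vs saline. MiR-188-3p, the minor arm, had 9 to 23 reads per library, with group levels of 1.63 ± 0.213 CPM in saline, 1.71 ± 0.526 in LPS and 1.63 ± 0.625 in LPS + GAS (SD, n = 3). For miR-188-3p the fit gave a log2 fold change of 0.05 (95% interval −0.74 to 0.85) for LPS vs saline, −0.05 (−0.85 to 0.75) for LPS + GAS vs LPS and 0.00 (−0.78 to 0.78) for LPS + GAS vs saline.

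MiR-362-5p had 82, 59 and 59 reads in saline, 65, 63 and 55 in LPS, and 56, 40 and 54 in LPS + GAS. In CPM its LPS + GAS libraries (4.05 to 5.23) all lay under its LPS libraries (5.23 to 6.47), although the nearest values of the groups were 5.227 and 5.234 CPM. In reads the groups overlapped. For miR-362-5p the fit gave a log2 fold change of −0.14 (95% interval −0.64 to 0.36) for LPS vs saline, −0.25 (−0.76 to 0.26) for LPS + GAS vs LPS and −0.39 (−0.90 to 0.12) for LPS + GAS vs saline. The adjusted p by edgeR was 0.903 where the groups did not overlap.

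MiR-362-3p showed the widest fitted differences of the 6 in the comparisons with the LPS group, though not in LPS + GAS vs saline. It had 16, 37 and 26 reads in saline, 12, 13 and 16 in LPS, and 24, 12 and 32 in LPS + GAS. The LPS libraries were low throughout, but saline replicate 1 and LPS + GAS replicate 2 were as low. For miR-362-3p the fit gave a log2 fold change of −0.94 (95% interval −1.84 to −0.03) for LPS vs saline, 0.76 (−0.16 to 1.67) for LPS + GAS vs LPS and −0.18 (−1.04 to 0.68) for LPS + GAS vs saline. In the first 2 comparisons its adjusted p by edgeR was 0.992 and 0.903. At these counts, the interval for a single library with 12 reads is 6.20 to 21.0 reads by counting error alone.

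None of the 6 members passed the threshold, an adjusted p of no more than 0.05 by edgeR's quasi-likelihood test together with a log2 fold change of 1 or more in size, in any of the 3 comparisons. In LPS vs saline 0 of 6 were called beside 0% of the 628 tested miRNAs, and the lowest adjusted p among the 6 was 0.992 by edgeR. In LPS + GAS vs LPS 0 of 6 were called beside 0%, with a lowest adjusted p of 0.903 by edgeR. In LPS + GAS vs saline 0 of 6 were called beside 0.159%, which is a single miRNA, miR-21a-3p, with a lowest adjusted p of 0.998 by edgeR. At an unadjusted p under 0.05, 1 of the 18 values passed, that of miR-362-3p in LPS vs saline. Over all 628 miRNAs the same limit was passed by 15 (2.39%) in that comparison, 23 (3.66%) in LPS + GAS vs LPS and 21 (3.34%) in the last. DESeq2 and voom called 0 of 6 in each comparison too.

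Groups that did not overlap in CPM were found for 0 of 6 members in LPS vs saline (3.82% of the 628 miRNAs), for 1 of 6, miR-362-5p, in LPS + GAS vs LPS (8.6%) and for 0 of 6 in LPS + GAS vs saline (7.32%). The median log2 fold change of the 6 was −0.14, −0.11 and −0.24 in these comparisons, beside −0.04, 0.00 and −0.03 over all 628. The second and the third of these comparisons share the LPS + GAS libraries, and the first shares the LPS and saline libraries with the others. Summed over the 6, the level was 180 ± 17.4 CPM in saline, 167 ± 20.5 in LPS and 153 ± 38.8 in LPS + GAS (SD, n = 3).

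**Figure D3:**
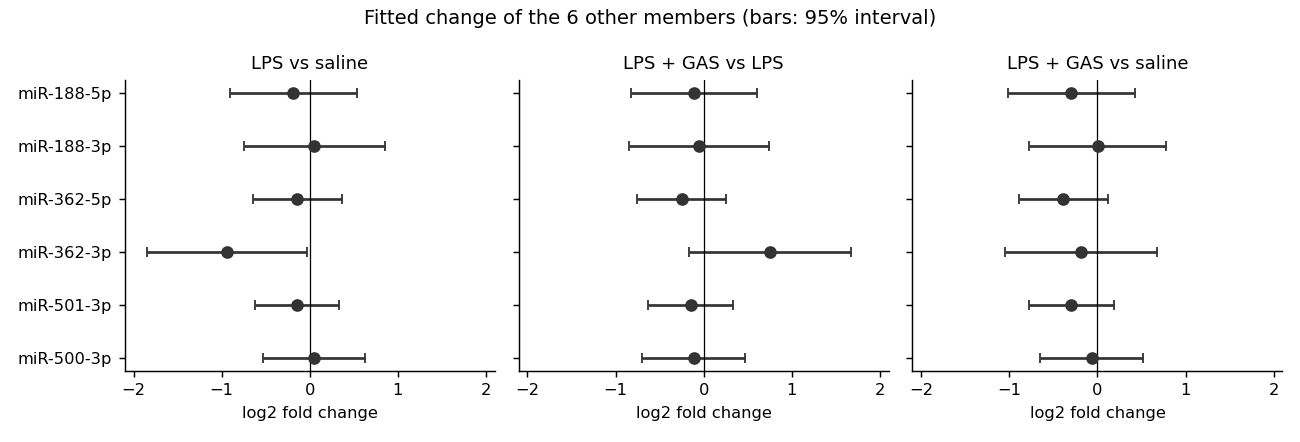
Fitted log2 fold change of the 6 members other than the miR-532 arms in the 3 comparisons, with the 95% interval from the edgeR fit. Of the 18 intervals, 17 include 0, and the exception is miR-362-3p in LPS vs saline (−1.84 to −0.03).

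LPS + GAS replicate 2 had the lowest CPM of the 9 libraries for 5 of the 6 members, the exception being miR-362-3p, beside 14.8% of the 628 tested miRNAs. The sum of the 6 there was 61.7% of the median of the 8 other libraries. By member this share ran from 48.9% for miR-188-5p to 75.2% for miR-362-5p, while the median share over all tested miRNAs was 95.5%. MiR-532-5p was not low in this library, with 1149 CPM. The ratio of miR-532-5p to the 6 others, 10.6, was highest there. In this library the neuronal markers summed to 166258 CPM, the highest of the 9 libraries, the choroid plexus and ependyma markers to 12601 CPM, the lowest of LPS + GAS, and the red blood cell markers to 4939 CPM. Their part in the low level of the members was not tested.

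As a description, the 15 pairs among the 6 members had a median Pearson correlation of 0.60 on log2(CPM + 1) over the 9 libraries, with a range of −0.06 to 0.87 and 14 pairs above 0. All pairs of the 628 miRNAs had a median of 0.00, and 6.91% of them exceeded 0.60. All points share the library and its scaling. Without LPS + GAS replicate 2 the median of the 15 pairs was 0.36 and 10 pairs were above 0, so the co-variation rested in part on that library. The correlation of miR-532-5p with these 6 members over the 9 libraries ran from −0.40 (miR-500-3p) to 0.39 (miR-362-3p). Over the 7 libraries without LPS replicates 1 and 3 it was 0.70 for miR-500-3p, 0.67 for miR-362-3p, 0.55 for miR-188-5p, 0.47 for miR-501-3p, 0.41 for miR-188-3p and −0.03 for miR-362-5p, so 4 of the 6 signs turned.

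The arm that dominated differed among the hairpins and was the same in every library. Mir188 gave 83.8% to 89.7% 5p reads and Mir362 61.5% to 84.4%. Mir500 gave 0.425% to 2.33% and Mir501 0.0900% to 1.03%, so both were almost purely 3p, with 1 to 13 reads per library for miR-501-5p. Thus the 3 hairpins nearest the start of the intron in the direction of transcription gave mostly 5p reads and the last 2 gave 3p reads.

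Arm use was tested for Mir188 and Mir362, as log2 of the 5p over the 3p reads with 0.5 added to each. By the exact two-sided permutation test, with 0.1 as the smallest p that 3 against 3 libraries allow and 6 tests in all, no difference could pass 0.05. For Mir362 the log2 ratio was 1.38 ± 0.849 in saline, 2.12 ± 0.333 in LPS and 1.22 ± 0.475 in LPS + GAS (SD, n = 3). It was higher in all 3 LPS libraries than in any LPS + GAS library, a difference of −0.91 for LPS + GAS vs LPS (exact permutation p = 0.1, adjusted 0.6). The saline libraries, at 0.67 to 2.32, overlapped with both groups, and the difference in LPS vs saline was 0.74 (exact permutation p = 0.3, adjusted 0.8). For Mir188 the differences, in the order used above, were −0.18, −0.08 and −0.26, with exact permutation p of 0.6, 0.7 and 0.4.

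**Figure D4:**
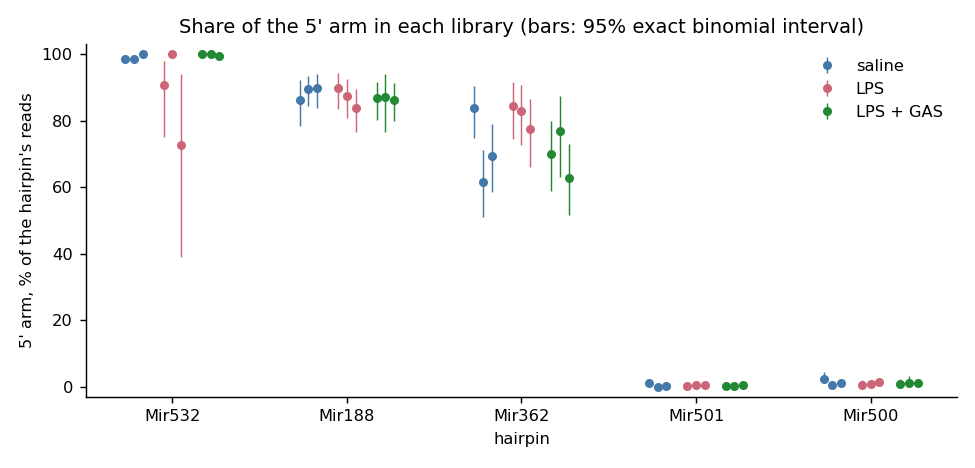
Share of the 5p arm in the reads of each hairpin, in percent, for each of the 9 libraries, with 95% exact binomial intervals for counting error. Mir188 and Mir362 keep mostly 5p reads and Mir501 and Mir500 under 3% in every library, while Mir532 falls from at least 98.4% to 90.6% and 72.7% in LPS replicates 1 and 3.

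A fall as deep as that of miR-532-5p was rare among abundant miRNAs. Among 372 miRNAs whose median reached 100 reads, 3 had under 1/20 of their median in at least 1 library. MiR-532-5p went to 0.0640% of its median, and the others were miR-669c-5p (0.794%) and miR-744-5p (0.984%). The next lowest share was 12.3%, for miR-330-3p. The members miR-188-5p, miR-501-3p and miR-500-3p, which also met the minimum of 100 reads, had 49.2% to 61.5% of their own medians in their lowest library. A minimum on the median leaves out miRNAs near 0 in most libraries, such as miR-532-3p. Of 415 miRNAs with a highest count of at least 100 reads, 7 had a lowest count under 1/20 of the highest. MiR-297c-5p, for example, had 0 to 3 reads in 5 libraries and 408 to 909 in the rest. As the locus was chosen on the counts of the miR-532 arms, their falls are a description only.

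The libraries concerned were not the same for the 3 miRNAs, except for LPS replicate 1. MiR-669c-5p had 4, 297 and 252 reads in saline, 2, 444 and 4 in LPS, and 274, 213 and 276 in LPS + GAS. MiR-744-5p had 3015, 4295 and 37 reads in saline, 36, 3290 and 3553 in LPS, and 3834, 3049 and 30 in LPS + GAS. LPS replicate 1 was thus low for all 3, LPS replicate 3 for miR-532-5p and miR-669c-5p, and each of miR-669c-5p and miR-744-5p was also low in a saline library.

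**Figure D5:**
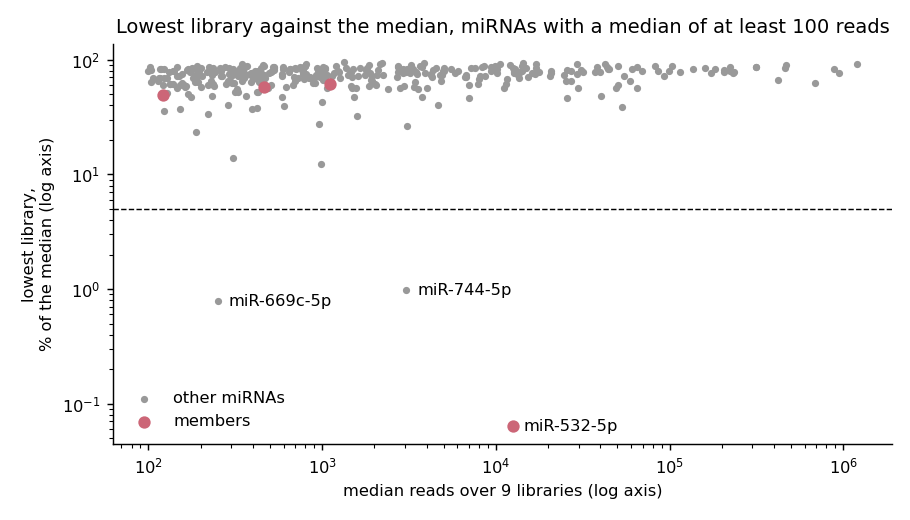
Each point is one of the 372 miRNAs whose median reached 100 reads, with its median over the 9 libraries on the x axis and its lowest library as a percentage of that median on the y axis, both on log axes. The dashed line marks 1/20 of the median, and the 3 miRNAs under it are miR-532-5p, miR-669c-5p and miR-744-5p, while the other members that met the minimum lie among the remaining miRNAs.

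By range, LPS replicates 1 and 3 did not stand apart from the 7 other libraries in most marker sums. For neurons and endothelium this rested on a single library. In LPS replicates 1 and 3 neuronal markers summed to 161366 to 163383 CPM, within the range of the 7 other libraries. That range reached so high only through LPS + GAS replicate 2 (166258 CPM), as the next highest was 154896 CPM in saline replicate 3. Sums for red blood cells, endothelium and oligodendrocytes were also within range. Choroid plexus and ependyma markers were at 22333 and 9600 CPM in LPS replicates 1 and 3, the latter just under the 9800 of the lowest other library. Leukocyte and microglia markers reached 6226 CPM, above the 5598 of the highest other library. This sum was mostly miR-150-5p, with a median of 50692 reads against 156 for miR-142a-3p and 138 for miR-142a-5p. LPS replicate 2, in which miR-532-5p was abundant, had the highest TMM factor, 1.19. It was lowest for 123 tested miRNAs, more than any other library. Its marker sums were the lowest for leukocytes and microglia (2569 CPM), endothelium (13328 CPM) and oligodendrocytes (461 CPM). Its sums for the other lists were not the lowest. Without this library, the range of endothelium would start at 14663 CPM, above the 14134 of LPS replicate 1. The part of these markers in the values of miR-532-5p was not tested. Of the 1448 listed miRNAs, 20 were lower in both of these libraries than in all 7 others. The gap was 1035 CPM for miR-532-5p and at most 85.7 CPM for the rest. A further 24 were higher in both, by at most 12.7 CPM.

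The tested miRNAs whose pattern was most like that of miR-532-5p, by Pearson's correlation on log2(CPM + 1) over the 9 libraries, were miR-6989-3p (0.85), miR-542-5p (0.83), miR-345-5p (0.81), miR-467c-5p (0.77) and miR-669c-5p (0.76). For miR-542-5p, miR-345-5p and miR-467c-5p the median of the 7 other libraries was 1.23-fold to 1.26-fold the mean of LPS replicates 1 and 3. It was 1.77-fold for miR-6989-3p, 85.0-fold for miR-669c-5p and 644-fold for miR-532-5p itself. The rank correlations (Spearman) of miR-542-5p, miR-345-5p and miR-467c-5p with miR-532-5p were 0.58, 0.50 and 0.35. Those of miR-6989-3p and miR-669c-5p were 0.35 and 0.43. Over the 7 libraries alone the correlations with these 5 ran from −0.36 to 0.30. The most opposite patterns over the 9 libraries were those of miR-6984-3p (−0.81), miR-3069-3p (−0.73), miR-3061-3p (−0.73), miR-125b-2-3p (−0.72) and miR-184-3p (−0.71). In the same order, the rank correlations were −0.63, −0.50, −0.28, −0.23 and −0.13. Over the 7 libraries alone the Pearson correlations were 0.02, −0.18, 0.51, 0.68 and 0.71. Those of miR-3061-3p, miR-125b-2-3p and miR-184-3p were thus clearly positive without LPS replicates 1 and 3. For miR-532-3p the highest values were those of miR-450b-3p (0.82), miR-199a-5p (0.81), miR-199b-3p and miR-199a-3p (0.75 for both), and miR-143-3p (0.73). By rank these were lower, at 0.48, 0.43, 0.61 (for both) and 0.55, and miR-532-3p reached 10 reads in only 3 libraries.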

How the data were processed

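The authors deposited a single table of 1448 mature miRNAs, each with its sequence and hairpin sequence, from 9 small RNA libraries made on a BGISEQ-500 platform. It holds read counts per library, which the authors did not normalize, and whole-number exp values at or below them (how these were made: not given in the sources used here). The exp values served as an alternative. The authors' group averages and comparison columns (log2 fold changes, p-values and q-values) were not used. The submitters' processing notes name GRCm38.p6 (aligner not given in the sources used here). Reads were not corrected here for differences in ligation between sequences, which can affect levels compared between miRNAs.

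The 628 miRNAs that reached 10 reads in 3 or more libraries were fitted in R 4.3.3 with edgeR 4.0.16, with TMM factors and a mean per group (glmQLFit, glmQLFTest), and adjusted by Benjamini-Hochberg over the 628. A call needed an adjusted p no higher than 0.05 and a log2 fold change of 1 or more in size. The steps were tested on simulated data. Intervals of fold changes use the fit's standard error and degrees of freedom. Levels between libraries are CPM. Arm ratios were tested by exact permutation. The alternatives were other size factors, filters and tools (DESeq2 1.42.0, voom of limma 3.58.1), the exp values, a replicate block and each library left out. Fits without LPS replicates 1 and 3 and without TMM factors were chosen after seeing the data.

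Besides the members, the miRNAs named are the other arms of the hairpins, those with a shared seed, miR-21a-3p as a call, the 5 most like and 5 most opposite to miR-532-5p, the 5 most like miR-532-3p, and those under 1/20 of a median of at least 100 reads. MiR-329-3p, miR-330-3p, miR-297c-5p and the single markers of blood cells were named after their values were seen. MiR-660-5p and miR-660-3p were looked for by name, were not among the listed miRNAs and so have no values here. The members, lists and rules were chosen with earlier results of these data known. Same-numbered libraries deviated together in LPS + GAS vs saline, with correlations of 0.30 to 0.37 over 3 pairs, and not throughout in the other comparisons. This pairing comes from the correlations alone, as no shared litter, batch or day is named. Nothing in the labels says that replicates are separate animals, so p-values measure the spread between these libraries.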

Additional observations from a re-analysis of the deposited data

How the results depend on the processing

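None of the 6 members other than the miR-532 arms was called in any alternative run that left more than a single library per group. The replicate block was among these runs (0 of 6 in each comparison). With the filter of at least 50 reads in 3 libraries only 4 of the 6 were tested, without miR-188-3p and miR-362-3p. The lowest adjusted p in these runs was 0.638 by edgeR, for miR-362-3p in LPS + GAS vs LPS without LPS replicate 3. Over all alternatives, a member kept its sign in 327 of 354 fits. Signs turned for values near 0, mostly when a single library was left out. In LPS vs saline, leaving out a library gave −0.35 to 0.029 for miR-188-5p, −0.22 to 0.21 for miR-188-3p, −0.23 to 0.084 for miR-362-5p and −0.092 to 0.22 for miR-500-3p. In LPS + GAS vs LPS it gave −0.27 to 0.17 for miR-188-5p, −0.22 to 0.23 for miR-188-3p, −0.26 to 0.033 for miR-501-3p and −0.27 to 0.11 for miR-500-3p. In LPS + GAS vs saline it gave −0.12 to 0.28 for miR-188-3p, −0.45 to 0.13 for miR-362-3p and −0.18 to 0.15 for miR-500-3p. There, where same-numbered libraries deviated together, the replicate block gave −0.042 for miR-188-3p and voom −0.072, against 0.00. The block changed no other sign of the 6 members and no call. Without LPS replicates 1 and 3, with the lone LPS library assumed to vary like the other groups, LPS vs saline was −0.21 for miR-188-3p and −0.28 for miR-500-3p. LPS + GAS vs LPS was then 0.088 for miR-188-5p, 0.21 for miR-188-3p, 0.033 for miR-501-3p and 0.22 for miR-500-3p. With a library left out, the difference in the log2 arm ratio of Mir188 was −0.35 to 0.014 for LPS vs saline, and −0.27 to 0.095 for LPS + GAS vs LPS. For Mir362 it was −0.53 to 0.30 for LPS + GAS vs saline. The cause of these changes was not tested. For miR-532-5p, voom gave −6.36 and 6.34 and the replicate block −4.97 and 4.96 where edgeR gave −1.84 and 1.81. By rank correlation miR-6989-3p fell from 0.85 to 0.35 in likeness to it. Members with 9 to 37 reads per library, miR-188-3p and miR-362-3p, are the least precise.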
